A study of Mus musculus with 4 samples.

Results

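The sclerotome members described here are 258 cells of the E10.5 XY gonad library, out of 3837 retained cells of that library and 10987 retained cells of the series. They were chosen by their own counts. A retained cell was a member if it held at least 1 unique molecular identifier (UMI, the tag that marks a single captured transcript) of at least 2 of Pax1, Pax9, Nkx3-2, and Meox1, with Pax1 or Pax9 among them, and no UMI of the myogenic factors Myf5, Myod1, and Myog. Retained cells had between 1000 and 4000 detected genes, and mitochondrial genes supplied under 10% of their UMIs. The members made up 6.72% of retained E10.5 cells (95% interval 5.95 to 7.56%). All intervals given here are exact at 95% and cover counting error only.

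The data came from 4 XY mouse libraries, each the only one of its condition. Gonads of ICR embryos were taken at E10.5, at E11.5, or at E12.5. The remaining library came from aggregates grown from embryonic stem cells (ESCs) for 6 days (D6), with cells carrying the Nr5a1-hCD271 reporter enriched by magnetic sorting (MACS). The paper describes this ESC line as derived from other mouse strains and as also carrying a reporter at Sox9. The embryonic libraries were made with version 2 and the D6 library with version 3 of the 10x Genomics 3′ kit. Tissue dorsal to the gonad was kept in the E10.5 library only, and the later gonads were freed of mesonephros. With 1 library per condition there is no replicate, so no difference below carries a test. One protocol text speaks of female gonads, but a transcript of at least 1 of 4 Y-linked genes was detected in 58.9% of members and Xist in 0 of 258.

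The sclerotome is the ventral part of the somite. Its cells lose their epithelial form, move around the notochord and neural tube, and give rise to vertebrae and ribs. Sonic hedgehog from the notochord and floor plate is known to induce it, and Pax1 and Pax9 are transcription factors that mark it. The somite also gives rise to the dermomyotome and myotome, the sources of dermis and skeletal muscle. Each sclerotome segment has a rostral part, marked by Tbx18, and a caudal part, marked by Uncx.

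The 4 defining markers did not contribute equally. Meox1 (chr11:101877510-101894374 on mm10), a homeobox gene of the whole somite, was detected in 245 members, Pax1 (chr2:147361925-147393295) in 218, and Pax9 (chr12:56691767-56712822) in 155. Nkx3-2 (chr5:41761483-41764501), a homeobox gene that acts after Pax1 and Pax9 in sclerotome differentiation, was nearly absent, with 1 UMI in 1 member and 5 UMIs in the 3837 retained cells. The label thus rests on Pax1, Pax9, and Meox1 alone. Members held a median of 2 Pax1 UMIs and at most 20, a median of 1 Pax9 UMI and at most 6, and a median of 3 Meox1 UMIs and at most 19. Pax1 was seen as a single UMI in 64 of its 218 members, and Pax9 in 94 of its 155.

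**Figure D1:**
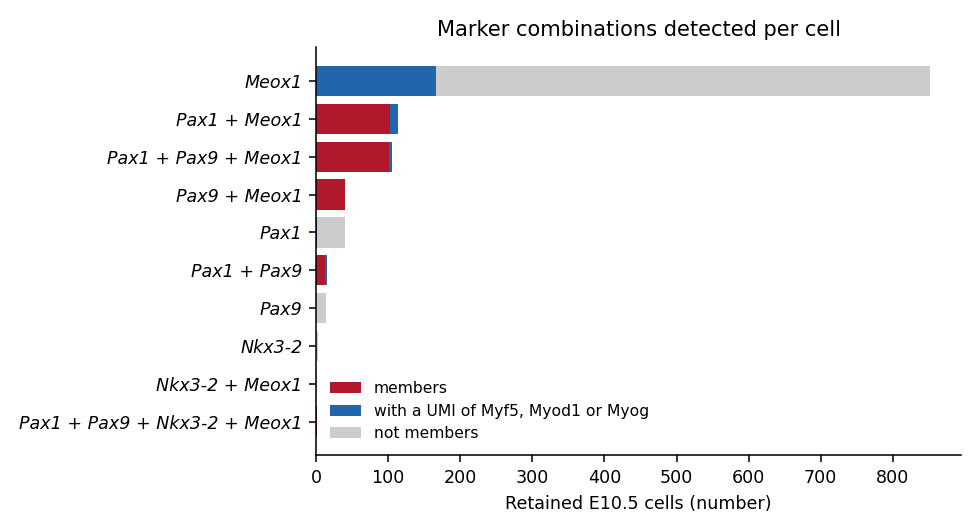
Number of retained E10.5 cells (horizontal axis) with each combination of the 4 defining markers (vertical axis). Red marks members, blue marks cells with a UMI of Myf5, Myod1, or Myog, and grey marks the other cells. Most cells with Pax1 or Pax9 together with Meox1 are members, whereas Meox1 alone is the commonest combination among cells with any marker, with 852 cells.

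Pax1 with Meox1 was the commonest combination among members (103 cells), followed by all of Pax1, Pax9, and Meox1 (101), Pax9 with Meox1 (40), and Pax1 with Pax9 (13). A single member held all 4 markers. Just outside the limit, 39 cells had Pax1 and 14 had Pax9 as their only marker and no myogenic factor, and 685 cells had Meox1 alone. A further 18 cells met the marker limit but held a UMI of a myogenic factor.

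The windows just upstream of the Pax1 and Pax9 start sites are shown because the 2 genes select the cells and are both known to respond to hedgehog signals. The 250 bases before the RefSeq start (GRCm38.p6, plus strand) lie at chr2:147364744-147364993 for Pax1 and at chr12:56695221-56695470 for Pax9. Each window lies in an intron of 1 longer transcript of the same gene in GENCODE vM21, and overlaps 0 exons. Capitals mark ACCACCC, the core of the site that Gli factors bind, searched on both strands.
Pax1: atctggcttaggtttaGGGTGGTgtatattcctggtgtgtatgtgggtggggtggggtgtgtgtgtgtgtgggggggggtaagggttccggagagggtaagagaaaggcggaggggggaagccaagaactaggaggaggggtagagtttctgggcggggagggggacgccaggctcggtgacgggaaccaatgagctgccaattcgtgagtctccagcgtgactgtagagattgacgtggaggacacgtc
Pax9: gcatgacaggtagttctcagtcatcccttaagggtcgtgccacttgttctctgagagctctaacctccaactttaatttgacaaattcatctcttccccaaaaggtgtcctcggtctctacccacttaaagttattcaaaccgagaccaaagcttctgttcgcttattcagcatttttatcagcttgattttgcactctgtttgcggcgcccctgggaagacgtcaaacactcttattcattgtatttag
The Pax1 window held the core once, on the minus strand, as GGGTGGT, beginning 234 bases before the start, and the Pax9 window held none. Windows of 14 genes of the report were searched, and only that of Pax1 held the core. Those of the hedgehog pathway genes Ptch1 and Hhip did not. Other motifs were searched as well and are not marked. The core occurred in 3.92% of the 32851 windows of the same length in the table, both strands counted. A match describes the letters only.

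Members were sequenced somewhat more deeply than other cells. Their median was 9661 UMIs and 3043 genes per cell, against 7874 UMIs and 2691 genes in the 2651 cells with no UMI of any of the 4 markers, and 8167 UMIs over all retained cells. Mitochondrial transcripts took a median of 2.59% of UMIs in members and 2.76% in the cells without markers. With 4000 UMIs drawn from each cell before the rule was applied, 4.98% of the 3454 cells deep enough met it.

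Transcripts of Pax1 and Pax9 were also looked for in cells of other types. Pax1 was detected in 1 of 63 endothelial cells, 1 of 51 erythroid cells, and 0 of 385 splanchnic cells. Splanchnic cells hold Foxf1 with Hand1 or Hand2 and are not members, so this choice partly fixed their counts of Pax1 and Pax9. The sets had median depths of 10238, 17203, and 7689 UMIs. Pax9 was detected in 0 cells of each of these sets, which allows shares of cells with a UMI of up to 4.76%, 5.88%, and 0.779%. In cells with a myogenic factor, Pax1 was detected in 19 of 277 and Pax9 in 7 of 277, and in neural cells in 2 of 158 and 1 of 158. Pax9 was detected in 1 of 9 germ cells and Pax1 in 0. In endoderm cells, Pax1 was detected in 1 of 41 and Pax9 in 0. Meox1 was found more widely, in 30 of 385 splanchnic cells and in 183 of 277 cells with a myogenic factor.

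The cells lay together when they were clustered without the 7 genes of the rule. At a Leiden resolution of 1, 198 of the 258 members (76.7%, 71.1 to 81.8%) were in 1 of 23 clusters. That cluster held 313 cells, of which 79 had Meox1 and 15 had Pax1 or Pax9 as their only marker, 16 had none of the 4 markers, and 5 had a myogenic factor. The next cluster held 26 members among 244 cells, with a median of 3524 UMIs against 9866 in the first. The following 2 held 20 and 9 members, and 5 other clusters held 1 each. At a resolution of 0.5, 209 members were in 1 cluster of 432 cells.

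The same rule found 0 members in the other 3 libraries. The E11.5 library had 2101 retained cells with a median of 11926 UMIs, and a count of 0 allows up to 0.143% of cells that meet the rule. The E12.5 library had 2764 with a median of 10946, which allows 0.109%, and the D6 library had 2285 with a median of 4607, which allows 0.131%. The limits on cells differed between libraries, after the methods of the study. Pax1 had 975 UMIs at E10.5, 2 in the D6 library, and 0 in both later gonad libraries. Uncx had 738 UMIs at E10.5, 9 in the D6 library, 1 at E12.5, and 0 at E11.5. Tcf15, a basic helix-loop-helix factor of epithelial somites and of endothelium, was at 91.1 CPM over the E10.5 cells, against 12.0 CPM and 12.2 CPM over the later gonad libraries and 2.02 CPM over D6 (CPM, UMIs per 1000000 UMIs of the set). Other genes of the report were not restricted to E10.5. Foxc2 was at 25.8 CPM there and 25.3 CPM over D6, and Sox9, which also acts in Sertoli cells of the testis, at 41.2 CPM there and 208 CPM and 102 CPM over the later gonad libraries. Stage, dissection, cell limits, and, at D6, kit, culture, magnetic sorting, strain, and the reporter at Sox9 cannot be told apart.

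Levels were compared after UMIs had been summed over the cells of a set and scaled by the total of that set. Members supplied 2464751 UMIs and the cells without markers 21721767. A gene was compared if it had at least 50 UMIs over both sets and 50 CPM in the higher, and was called 2-fold higher or lower on the ratio with 10 CPM added to each side. The genes of the rule were left out. Of the 3183 genes compared, 31 (0.974%) were 2-fold higher in members and 85 (2.67%) were 2-fold lower. The cells were selected on these counts, so both shares describe the selection. The median log2 ratio over all compared genes was 0.08.

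**Figure D2:**
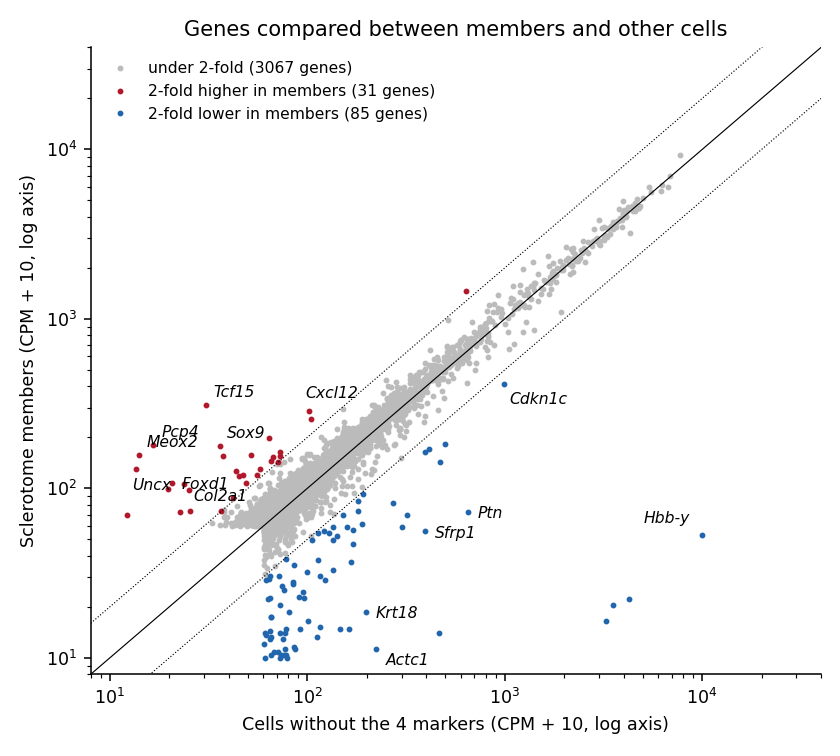
Each of the 3183 compared genes by its summed level in cells without the 4 markers (horizontal axis) and in members (vertical axis), both as CPM plus 10 on log axes. The solid line marks equal levels and the dotted lines mark 2-fold. Tcf15, Meox2, Pcp4, and Uncx stand farthest above it, and the globin gene Hbb-y stands farthest to the right below it.

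The genes farthest above the line were led by transcription factors of the somite. Of 16 such factors on the list, 10 were 2-fold higher and 0 were lower at any level, with a median log2 ratio of 1.35. No share over all genes is given for counts at any level, here or below. The limits on level left 9, of which 8 were 2-fold higher, beside 0.974% of all compared genes. However, a gene that reached the limits only through members had to differ. Meox2, the paralog of Meox1, was at 148 CPM (133 to 164) in members and 4.05 CPM (3.25 to 4.99) in cells without markers, a ratio of 36.5 (28.8 to 46.6). It was detected in 67.1% (61.0 to 72.8) of members. Tcf15 was at 299 CPM (278 to 322) in members and 20.5 CPM (18.7 to 22.5) in the others, and was detected in 79.5% (74.0 to 84.2) of members. Thinning each cell to 4000 UMIs left Tcf15 in 58.3% of members and 6.19% of cells without markers.

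The forkhead genes Foxc1 and Foxc2, which are needed for somite formation, were both higher. Foxc2 was at 88.0 CPM (76.7 to 101) against 15.1 CPM, and Foxc1 at 62.5 CPM (53.0 to 73.2) against 12.7 CPM. Zic1, a zinc finger gene of the dorsal neural tube and of somites, was at 59.6 CPM (50.4 to 70.1) against 2.26 CPM and was detected in 21.3% (16.5 to 26.8) of members. Ebf1, Ebf2, and Ebf3 encode factors of 1 family. Ebf1 was at 117 CPM against 33.4 CPM, a ratio of 3.51 (3.05 to 4.03). Ebf2 and Ebf3, at 45.0 CPM and 25.2 CPM in members, were under the limit of 50 CPM, with ratios of 8.66 (6.60 to 11.4) and 4.30 (3.12 to 5.87).

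Not every mesenchymal factor stood apart. Twist1, a factor of migrating mesenchyme, was 2.41 (2.10 to 2.76) times as abundant in members (log2 1.11 with 10 CPM added, and 0.93 when cells of the erythroid, endothelial, neural, endoderm, germ, and macrophage classes were left out of the comparison), and its relative Twist2 1.82 (1.57 to 2.09) times. Prrx1, of limb and lateral plate mesenchyme, was at 47.9 CPM (39.6 to 57.3) in members and 43.5 CPM (40.7 to 46.3) in the others, so the intervals overlapped. The intervals of Snai2, which acts when epithelium becomes mesenchyme, overlapped as well, at 24.7 CPM (18.9 to 31.8) and 28.0 CPM (25.8 to 30.3).

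Other genes among the 15 highest were not on the list of somite factors. Pcp4, which encodes a small calmodulin-binding peptide, was at 169.6 CPM (154 to 187) in members and 6.63 CPM (5.59 to 7.80) in the others. It was detected in only 42.6% (36.5 to 48.9) of members, so its UMIs were concentrated in part of them. Foxd1, a forkhead gene, was at 97.0 CPM (85.1 to 110.1) against 10.6 CPM. Fibin, which encodes a secreted protein, was at 89.7 CPM (78.2 to 102) against 9.67 CPM. Mdfi, an inhibitor of myogenic helix-loop-helix factors, was at 187 CPM (171 to 205) against 54.0 CPM and was detected in 74.8% (69.0 to 80.0) of members.

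Few cartilage genes reached the limits on level. Of 15 listed chondrogenic genes found in the files, 4 were 2-fold higher and 1 was lower at any level, and the median log2 ratio over the 15 was 0. The 3 that reached the limits did so through their level in members. Sox9 (chr11:112782224-112787760), the factor that commits cells to cartilage, was at 168 CPM (152 to 185) in members and 26.0 CPM (23.9 to 28.2) in the others, and was detected in 67.4% (61.4 to 73.1) of members. Col2a1, the main collagen of cartilage and a target of Sox9, was at 96.6 CPM (84.7 to 109.6) against 13.7 CPM. Col9a1, another cartilage collagen, was at 144 CPM (129.8 to 160.2) against 27.2 CPM. Sox5, a partner of Sox9, was at 32.9 CPM (26.1 to 40.8) against 8.89 CPM, whereas its relative Sox6 was at 9.74 CPM (6.24 to 14.5) against 13.2 CPM.

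Several genes of mature cartilage and of bone were at or near 0 in both sets. Acan (aggrecan), Matn1 (matrilin 1), and Runx3 had 0 UMIs in members, and each was also at 0 in the cells without markers. Runx2, the factor of osteoblasts, had 1 UMI. Hapln1, which encodes a link protein of cartilage matrix, went the other way, with 4 UMIs in members (1.62 CPM) and 33.8 CPM in the others. The tendon factor Scx had 25 UMIs in members, at 10.1 CPM (6.56 to 15.0) against 4.47 CPM, and Tnmd, a marker of mature tendon, had 0. Of the 6 tendon genes, 0 reached the limits, and the median log2 ratio was 0.17.

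Hedgehog signaling was examined by ligands, response genes, and components of reception. The ligands Shh and Dhh had 0 UMIs in members and Ihh had 1. The 4 response genes, which are transcribed when the pathway is active, had a median log2 ratio of 0.65, and 0 of them reached the limits on level. Gli1 was at 15.4 CPM (10.9 to 21.2) in members and 3.96 CPM (3.17 to 4.89) in cells without markers, a ratio of 3.89 (2.59 to 5.77). Hhip, a decoy receptor, gave a ratio of 3.71 (2.45 to 5.50), and Ptch1, the receptor, 1.51 (1.22 to 1.86) at 42.6 CPM (34.8 to 51.6) in members.

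Against splanchnic cells the 4 response genes had a median log2 ratio of 0.03, and the order of Ptch1 turned. Ptch1 was then 2.10 (1.67 to 2.65) times as abundant in splanchnic cells as in members, at 89.3 CPM (79.1 to 100.4). Gli1 was at 11.8 CPM (8.33 to 16.3) in splanchnic cells, and its ratio of 1.30 (0.806 to 2.11) did not exclude equal levels. Among the 7 genes of reception, Gas1, a coreceptor, was 2-fold lower in members than in cells without markers, at 82.8 CPM (71.8 to 94.9) against 182 CPM (176 to 188), and stood at 85.7 CPM in splanchnic cells. Its log2 ratio against cells without markers was -1.05, and it was -0.82 with no limits on cells and -0.82 with myogenic factors left out of the rule, which ends the call. Smo, the transducer of the signal, was at 64.9 CPM (55.2 to 75.8) in members, 57.8 CPM in cells without markers, and 65.6 CPM in splanchnic cells.

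Bone morphogenetic protein (BMP) genes were lower in members or did not reach 2-fold. Of 12 listed genes, 4 reached the limits, 0 were 2-fold higher, and 2 were lower, with a median log2 ratio of -0.55. Bmp4, a ligand of the lateral mesoderm, was at 12.6 CPM (8.55 to 17.9) in members and 86.7 CPM (82.8 to 90.7) in the others. Id2, a response gene, was at 154 CPM (139 to 170.5) against 387 CPM (378 to 395). Id3 was at 409 CPM (384 to 435) against 631 CPM (620.3 to 641), short of 2-fold. Msx1, another response gene, had 0 UMIs in members and 39.0 CPM in the others, which is at least 32.0-fold lower against a floor of 3 UMIs over the members.

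Other signaling genes differed in both directions. Of 10 Wnt genes, 2 reached the limits and 1 was 2-fold lower, and of 13 FGF and retinoic acid genes, 6 reached them, 1 was higher, and 2 were lower. Sfrp1, a secreted Wnt antagonist, was at 46.3 CPM (38.2 to 55.6) in members and 383 CPM (375 to 392) in the others, 8.29 (6.89 to 10.1) times as high. Its relative Sfrp2 was at 51.1 CPM (42.6 to 60.9) against 42.5 CPM (39.8 to 45.4). Aldh1a2, which makes retinoic acid, was at 23.1 CPM (17.5 to 30.0) against 125 CPM (121 to 130.2), and Crabp1, which binds it in the cytoplasm, at 59.6 CPM (50.4 to 70.1) against 309 CPM (302 to 317). Dusp6, a feedback inhibitor of FGF signaling, was higher in members, at 136 CPM (121 to 151) against 55.3 CPM (52.3 to 58.6). Of the 13 Notch and segmentation genes, Hes1, a target of Notch, was compared, at 81.5 CPM (70.7 to 93.6) against 83.6 CPM (79.8 to 87.5). The oscillator gene Hes7 had 5 UMIs and Mesp2 0. Of 6 platelet-derived growth factor genes, 0 reached the limits, and the receptor gene Pdgfra was at 36.5 CPM (29.4 to 44.9) against 39.5 CPM (36.9 to 42.2).

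Matrix and adhesion genes also differed in both directions. Of 20 listed genes, 12 reached the limits, 3 were 2-fold higher, and 2 were 2-fold lower. The higher genes were Lum (lumican, 109.5 CPM against 37.3 CPM), Cdh11 (a mesenchymal cadherin, 97.4 CPM against 38.7 CPM), and Vcan (versican, 119 CPM against 47.4 CPM). Without cells of the other named classes in the comparison, the log2 ratio of Cdh11 was 0.99 and no longer 2-fold. The lower genes were Sparc (osteonectin, 133 CPM against 462 CPM) and the adhesion gene Ncam1 (42.2 CPM against 131 CPM). The chemokine gene Cxcl12 was at 275 CPM (254 to 296) against 92.3 CPM.

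**Figure D3:**
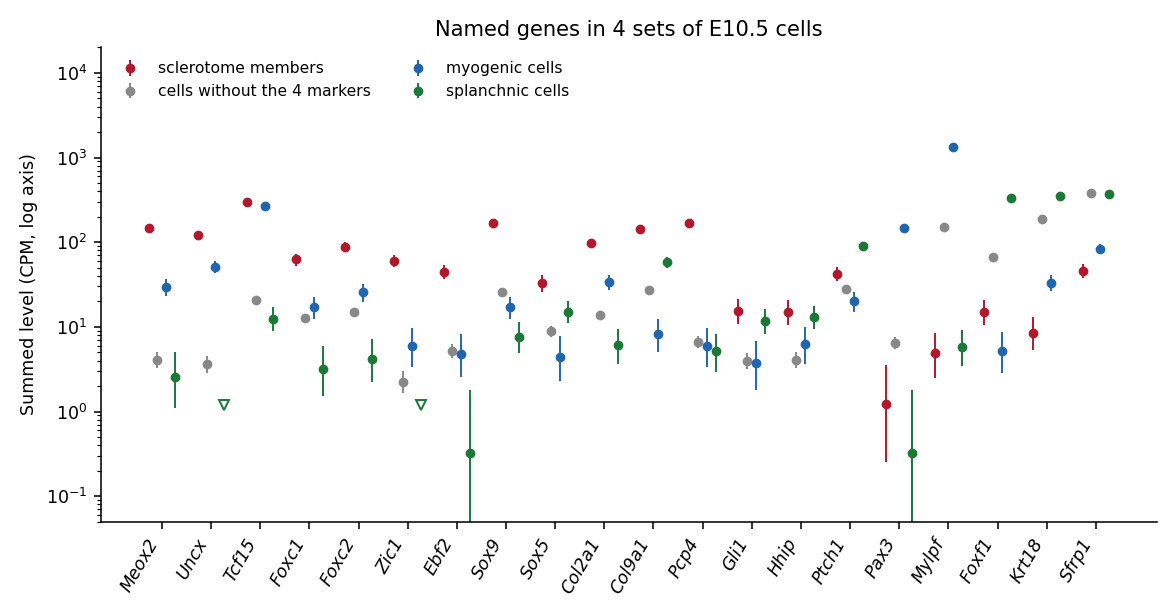
Summed levels of 20 genes (CPM, log axis) in members, cells without the 4 markers, myogenic cells, and splanchnic cells. Bars are exact 95% Poisson intervals and open triangles mark the upper limit where no UMI was found. Tcf15 is at 299 CPM in members and 271 CPM in myogenic cells, whereas Sox9 is at 168 CPM in members and at or under 26.0 CPM in the other 3 sets.

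Most cell cycle genes did not reach 2-fold. Of 12 listed genes, 11 reached the limits, 0 were 2-fold higher, and 1 (Cdkn1c) was lower, with a median log2 ratio of 0.23. Mki67, a marker of cycling cells, was at 79.1 CPM (68.4 to 91.0) in members and 81.8 CPM (78.0 to 85.7) in the others. Ccnd2 (cyclin D2) was 1.92 (1.83 to 2.00) times as abundant in members, at 968 CPM (930.0 to 1008). Cdkn1c, an inhibitor of the cell cycle, was at 401 CPM (376 to 427) against 977 CPM (964 to 991). Its log2 ratio of -1.26 was -0.41 with myogenic factors left out of the rule and -0.83 without other classes and myogenic cells. Cdkn1a, another inhibitor, had 5 UMIs in members and was under the limit on level, at 47.0 CPM in the others.

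Genes of other mesodermal tissues were largely missing from the members. All 10 lateral plate and splanchnic genes had log2 ratios below -1 at any level. Of these, 5 were among the compared genes, of which 2.67% were 2-fold lower. The summed level of the 10 was 25.6 CPM in members against 483 CPM in the others. Hand1 had 0 UMIs in members, at least 56.3-fold lower than in cells without markers. Foxf1, the most abundant of these genes in members, was at 15.0 CPM (10.6 to 20.7). Of 12 genes of the coelomic epithelium and early gonad, 3 reached the limits and all were 2-fold lower. Nr5a1, Gata4, Lhx2, and Upk3b had 0 UMIs in members, though Nr5a1 was at only 4.33 CPM in cells without markers. The list summed to 63.7 CPM in members and 592 CPM in the others, with Cbx2, a Polycomb gene, the most abundant in members at 27.6 CPM (21.4 to 35.0). Wt1, of the coelomic epithelium and nephrogenic mesenchyme, had 21 UMIs. The keratin gene Krt18 was 22.1 (14.4 to 35.8) times as high in cells without markers, and the growth factor gene Ptn (pleiotrophin) 10.2 (8.74 to 12.1) times. The log2 ratio of Ptn was -3.16, and it was -2.25 with no limits on cells.

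The lowest ratios belonged to red cell and muscle genes. The 9 erythroid genes summed to 78.3 CPM in members and 21693 CPM in the others, with Hbb-y the most abundant in members at 43.0 CPM (35.2 to 52.0), and Alas2 at 0. Of the cells without markers, 50 were of the erythroid class, and globin transcripts were detected in members at low levels, with Hbb-y in 33.3% (27.6 to 39.4). The part of free RNA in this was not tested. When cells of the other named classes were left out of the comparison, 28 genes were 2-fold higher and 76 lower, and 26 of the 31 and 64 of the 85 were among them. The log2 ratios of Hbb-bs and Hbb-bh1 were then 0.083 and 0.017, against -2.78 and -7.42 with those classes in, while Hba-a1 was at -0.81, Hbb-bt at -0.51, Hba-x at -0.27, and Hbb-y at -0.029. The muscle genes Actc1 (1.22 CPM against 212 CPM) and Mylpf (4.87 CPM against 152 CPM) were also low. Members held no myogenic factor by the rule, whereas 91 of the cells without markers held one. Without those and the other classes, the log2 ratio of Mylpf was -0.43, against -3.45. The other classes held few members, with 1 in the neural class, 1 in the endoderm class, and 0 in the endothelial, erythroid, germ, and macrophage classes. Summed over members, neural markers were at 11.8 CPM, endoderm markers at 9.33 CPM, endothelial markers at 25.6 CPM, germ cell markers at 1.62 CPM, and macrophage markers at 0. The endothelial markers Cdh5, Kdr, and Tek, the macrophage markers Ptprc and Csf1r, and the notochord genes T and Noto had 0 UMIs.

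The remaining marker lists gave few compared genes. Of 14 dermomyotome and myotome genes, 3 reached the limits and all 3 were 2-fold lower in members, with a median log2 ratio of -0.45. These were Actc1, Mylpf, and Des, which encodes desmin. The nephric list had 7 genes and the germ list 5, and 0 of either reached the limits. Of 8 neural genes, Tubb3, a neuronal tubulin, was compared and was lower, at 3.25 CPM (1.40 to 6.40) against 102 CPM (97.9 to 106). Without the other classes its log2 ratio was -0.77, against -3.08. Of 6 endothelial genes, Egfl7 was compared and was not 2-fold different, at 21.1 CPM (15.8 to 27.7) against 51.2 CPM (48.3 to 54.3). The 6 endoderm genes and 5 macrophage genes were under the limits. Of 5 notochord genes, Krt8 was compared and was lower, a keratin found in many epithelia. Among 5 interstitial marker genes that the study used, 2 were compared and 0 were 2-fold different. Nr2f2, an orphan nuclear receptor of mesenchyme, was at 83.6 CPM (72.6 to 95.8) against 161 CPM (156 to 167).

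Cells with a UMI of Myf5, Myod1, or Myog are the closest class by origin. There were 277 such cells, with a median of 9971 UMIs. Of 3190 compared genes, 39 (1.22%) were 2-fold higher in members and 127 (3.98%) were lower. Absence of the myogenic factors was part of the rule, so the muscle genes among the lower ones describe the selection. Actc1 was at 1942 CPM in myogenic cells, Mylpf at 1321 CPM, and the cardiac troponin gene Tnnt2, which had 0 UMIs in members, at 415 CPM. Pax3, the factor of the dermomyotome, was at 146 CPM (132 to 161) in myogenic cells and 1.22 CPM (0.251 to 3.56) in members.

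Somite genes differed in how far they were shared with the myogenic cells. Tcf15 was at 271 CPM (252 to 291) in myogenic cells, and the ratio of 1.10 (0.996 to 1.23) did not exclude equal levels. Uncx was 2.36 (1.92 to 2.91) times as high in members and Meox2 5.06 (3.95 to 6.53) times. Sox9 was at 17.0 CPM (12.45 to 22.7) in myogenic cells, a ratio of 9.87 (7.27 to 13.7), and Col9a1 at 8.14 CPM (5.10 to 12.3), a ratio of 17.8 (11.54 to 28.7). Col2a1 differed less. It was at 33.7 CPM in myogenic cells and detected in 25.3% of them, against 96.6 CPM and 52.7% in members. Pcp4 gave a ratio of 28.7 (17.4 to 50.6), and Lum was 14.1 (9.04 to 23.2) times and Cxcl12 5.46 (4.54 to 6.62) times as high in members. Fam212a was 7.71 (5.47 to 11.1) times as high. Cdkn1c, at 4068 CPM (3993 to 4145), was 10.1 (9.51 to 10.8) times as high in myogenic cells, and Cdkn1a 229 (97.8 to 706) times.

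The 385 splanchnic cells were chosen by Foxf1 with Hand1 or Hand2, genes of the lateral mesoderm, and members were left out of them. Of the 385, 353 were also among the cells without the 4 markers, so the comparisons with these sets are not independent. Genes of the coelomic epithelium and early gonad summed to 762 CPM in them, against 63.7 CPM in members. Without Foxf1, Hand1, Hand2, and the genes of the rule, 3288 genes were compared, of which 40 (1.22%) were 2-fold higher in members and 113 (3.44%) were lower. Tcf15 was 24.0 (17.4 to 34.0) times as high in members, Meox2 57.7 (29.0 to 135) times, and Sox9 21.9 (14.5 to 34.5) times. Uncx and Zic1 had 0 UMIs in splanchnic cells, which makes them at least 126-fold and 62.1-fold higher in members. Foxc1 and Foxc2 were at 3.20 CPM (1.53 to 5.88) and 4.16 CPM (2.21 to 7.11) in splanchnic cells. Lum was at 155 CPM (141 to 169) there, 1.41 (1.21 to 1.64) times the level in members, and Col9a1 was at 57.9 CPM (49.8 to 67.0).

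The genes lower in members included regulators and epithelial keratins. Mab21l2, a regulator of mesodermal and eye development, was at 269 CPM (251 to 288) in splanchnic cells and had 1 UMI in members. Nkx2-3, a homeobox gene of gut mesenchyme, was at 165 CPM (151 to 179.6) and had 0 UMIs in members. Isl1, a LIM homeobox gene, was at 97.9 CPM (87.2 to 109.5) and had 2 UMIs in members. Krt18 was 40.7 (26.5 to 66.0) times and Krt8 45.4 (26.4 to 85.6) times as high in splanchnic cells. Postn (periostin), a matrix gene, was 36.3 (18.2 to 84.7) times as high in them.

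Hox genes, which record position along the body axis, were detected in members in paralog groups 1 to 11. Their summed level was 196 CPM (178 to 214) for group 7, 206 CPM (188 to 224) for group 8, and 266 CPM (246 to 287) for group 9, and it was 66.9 CPM (57.1 to 78.0) for group 10. Group 11 had 1 UMI, and groups 12 and 13 had 0. Splanchnic cells differed in both directions, with 103 CPM (92.1 to 115) for group 7, 153 CPM (139.8 to 168) for group 10, and 152 CPM (139 to 166) for group 4, against 81.1 CPM (70.3 to 93.2) for group 4 in members. Myogenic cells were at 258 CPM (239 to 278) for group 7 and 25.5 CPM (19.9 to 32.3) for group 10. Among single genes, Hoxa7 was at 143 CPM (129 to 159) and Hoxc8 at 162 CPM (146 to 179) in members, against 102 CPM and 112 CPM in cells without markers. Hoxd9 was lower, at 18.3 CPM (13.3 to 24.4) against 49.4 CPM. Of 38 Hox genes, 0 of the 10 that reached the limits was 2-fold higher or lower than in cells without markers.

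**Figure D4:**
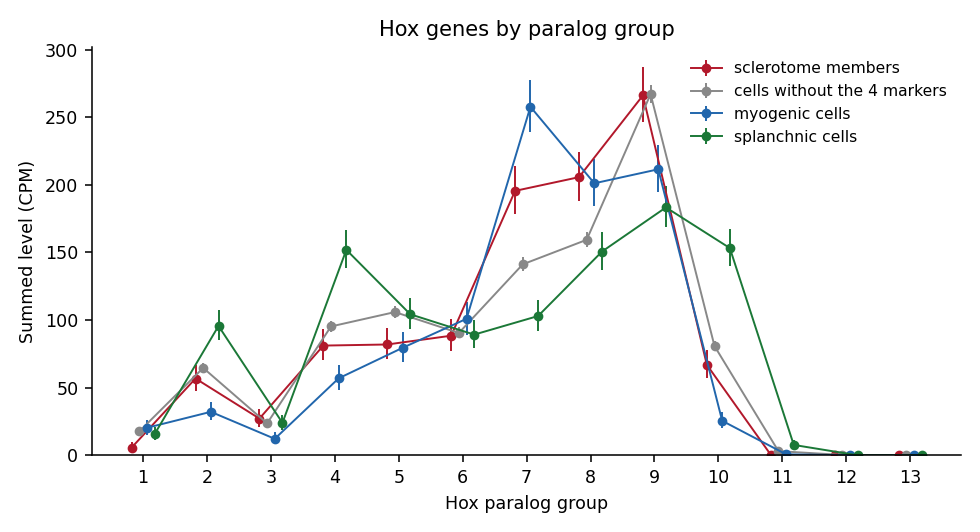
Summed CPM of the Hox genes of each paralog group (horizontal axis, 1 to 13) in the 4 sets of cells. Bars are exact 95% Poisson intervals and lines join the points of a set. Members are highest at group 9 and have 1 UMI at group 11, while splanchnic cells are lower at groups 7 and 8 and higher at groups 4 and 10.

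Members differed among themselves in the genes that mark the parts of a segment. Uncx (chr5:139543494-139548179), a homeobox gene of the caudal part, was detected in 106 of 258 (41.1%, 35.0 to 47.4%) members. Tbx18 (chr9:87702800-87731260), a T-box gene of the rostral part, was detected in 38 of 258 (14.7%, 10.6 to 19.7%). Only 2 members held both (0.775%, 0.0940 to 2.77%), 104 held Uncx alone, 36 held Tbx18 alone, and 116 held neither. Tbx18 was thus found in 2 of 106 (1.89%, 0.229 to 6.65%) members with Uncx and in 36 of 152 (23.7%, 17.2 to 31.3%) members without it. After thinning to 4000 UMIs, which left out 16 members, these shares were 1 of 59 (1.69%, 0.0429 to 9.09%) and 17 of 183 (9.29%, 5.51 to 14.5%), and their intervals overlapped. Neither gene was part of the rule. In cells without markers, Uncx was detected in 1.74% and Tbx18 in 5.85%. In cells with a myogenic factor these shares were 23.1% and 3.97%. Tbx18 was at 21.1 CPM in members and 11.7 CPM in cells without markers, a log2 ratio of 0.52, short of 2-fold.

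Members were then split on detection of Uncx, which gave 106 cells with a median of 10021 UMIs and 152 cells with a median of 9231. The genes named in this and the following splits were chosen after their values were seen. Prrx1 was at 14.5 CPM (8.11 to 23.9) in members with Uncx and 72.0 CPM (58.8 to 87.4) in those without. It was detected in 10 of 106 (9.43%, 4.62 to 16.7%) of the former and 64 of 152 (42.1%, 34.2 to 50.4%) of the latter. After thinning these were 4 of 59 (6.78%, 1.88 to 16.5%) and 33 of 183 (18.03%, 12.8 to 24.4%), and the intervals overlapped. Nrp2 (neuropilin 2), a receptor for semaphorins, was at 9.66 CPM (4.63 to 17.8) against 44.1 CPM (33.9 to 56.4). Asb4 was also lower with Uncx, at 94.7 CPM (76.9 to 115) against 191 CPM (169 to 215).

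Other genes were higher in the members with Uncx. Tbx1, a T-box gene, was at 61.8 CPM (47.6 to 79.0) against 14.0 CPM (8.54 to 21.6). The transcriptional coregulator gene Cited1 was at 61.8 CPM (47.6 to 79.0) against 17.5 CPM (11.3 to 25.8), and Tshz2, a zinc finger gene, at 149.7 CPM (127 to 175) against 49.0 CPM (38.2 to 61.9). Mycn was at 134 CPM (113 to 159) against 54.6 CPM (43.1 to 68.1). Sox9 was 1.58 (1.30 to 1.93) times and Pcp4 1.88 (1.54 to 2.30) times as high, whereas the intervals of Tcf15 overlapped, at 286 CPM (254 to 320.5) against 309 CPM (281 to 339). Those of Meox2 did too, at 135 CPM (114 to 159.6) against 157 CPM (137 to 179). In the 38 members with Tbx18, Prrx1 was 1.90 (1.23 to 2.87) times and Tshz2 0.529 (0.324 to 0.823) times as high as in other members. The order for Prrx1 did not hold after thinning, when it was found in 2 of 18 (11.1%, 1.38 to 34.7%) members with Tbx18 and 35 of 224 (15.6%, 11.1 to 21.1%) without, with overlapping intervals.

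**Figure D5:**
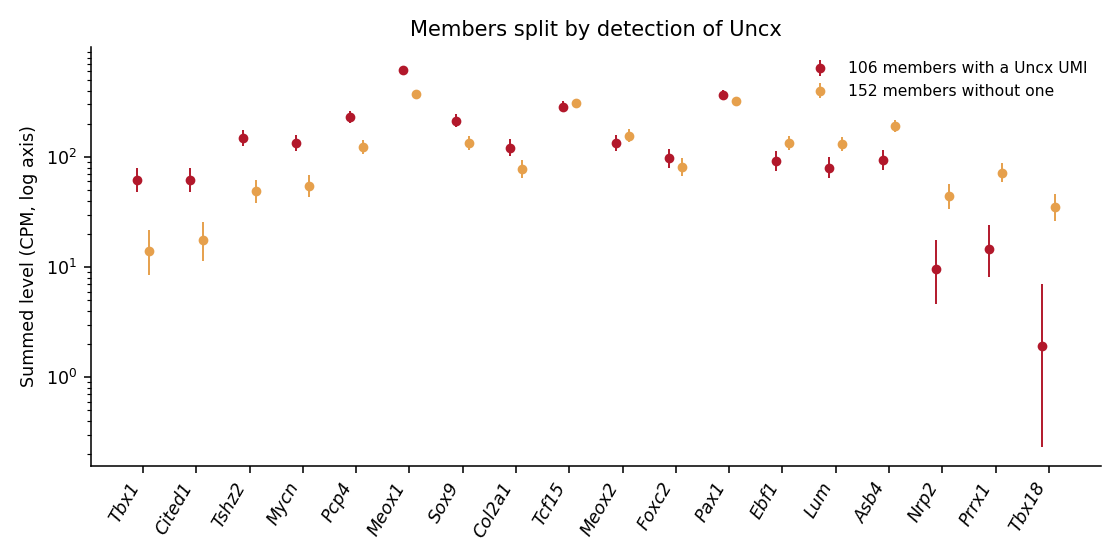
Summed CPM (log axis) of 18 genes in the 106 members with a Uncx UMI and the 152 without one. Bars are exact 95% Poisson intervals. Tbx1, Cited1, and Tshz2 are higher with Uncx, Nrp2, Prrx1, and Tbx18 are lower, and Tcf15, Meox2, and Foxc2 are close in both.

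Sox9 was detected unevenly as well. The 174 members with Sox9 had a median of 10210 UMIs and the 84 without it 7889, so depth moves with this split. Col2a1 was at 107 CPM (92.6 to 123) in members with Sox9 and 68.3 CPM (50.0 to 91.1) in those without. After thinning it was found in 43 of 118 (36.4%, 27.8 to 45.8%) of the former and 32 of 124 (25.8%, 18.4 to 34.4%) of the latter, and the intervals overlapped. Col9a1 was at 156 CPM (139 to 176) against 113 CPM (88.9 to 141), with overlapping intervals, and after thinning it was found in 47 of 118 (39.8%, 30.9 to 49.3%) members with Sox9 and 47 of 124 (37.9%, 29.3 to 47.1%) without. Crabp1 was at 41.9 CPM (32.9 to 52.5) against 107 CPM (83.6 to 135), Cdkn1c at 326 CPM (300.2 to 354) against 599.5 CPM (542 to 661), and Sparc at 113 CPM (98.3 to 130.1) against 187 CPM (156 to 223). After thinning, Sox9 was found in 37 of 59 (62.7%, 49.1 to 75.0%) members with Uncx and 81 of 183 (44.3%, 36.9 to 51.8%) without, and the intervals overlapped. 

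Cells just inside and just outside the limit are given by their levels. Tcf15 was at 343 CPM in the 102 members with 3 or 4 markers, 267 CPM in the 156 with 2, 173 CPM in cells with Meox1 alone, and 66.9 CPM in those with Pax1 or Pax9 alone. Uncx was at 149 CPM, 99.3 CPM, 37.5 CPM, and 20.7 CPM in the same order. Sox9 was at 188 CPM, 153 CPM, 49.8 CPM, and 59.9 CPM. Aldh1a2 was lowest in members, at 6.70 CPM, 35.2 CPM, 102 CPM, and 46.1 CPM. Zic1 was at 55.3 CPM in the 53 cells with Pax1 or Pax9 alone and 62.0 CPM in members with 2 markers, and Lum at 119.9 CPM and 99.3 CPM. In these 53 cells globin transcripts took 3.10% of UMIs, against 0.00779% in members, and the part of red cells in this was not tested.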

How the data were processed

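The authors deposited 10x Genomics matrices of whole-number UMI counts per gene and cell, without normalization, for 4 XY libraries. Reads had been mapped to mm10 with Cell Ranger. The submitters' processing notes give version 3.0.2 and the file headers 6.0.0. The barcode and gene lists deposited with each matrix gave only cell and gene names. Doublets were left in. Members and gene lists were chosen with earlier results of these data known. Besides the 29 lists (278 genes, of which 2 were not matched to a single row), the 15 highest and 10 lowest ratios against cells without markers and the 8 per direction in each of the other 2 comparisons could be named. Some of these genes are not reported here.

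For all analyses, the E10.5 library (40199985 UMIs over 4473 barcodes) was reduced to 3837 cells with 32508523 UMIs. Of these barcodes, 15 recurred in the E12.5, 8 in the E11.5, and 0 in the D6 library. UMIs were summed over cells and scaled to CPM, with exact Poisson intervals. Shares carry exact binomial intervals, and ratios intervals from the conditional binomial distribution. Alternatives changed the limits on cells, the marker rule, thinning, doublets, the comparison cells, scaling, the pseudocount, and the limit on level. For a count of 0, the limit was set at 3 cells, or 3 UMIs for a level. No test was made, since each condition is 1 library. Thinned shares used 4000 UMIs drawn at random per cell and left out 383 shallower cells. Clusters came from 1993 variable genes, 30 principal components, and 15 neighbors in scanpy 1.11.5. The other classes were called from at least 3 markers, 2 for germ cells, or at least 10% globin UMIs. The calculations were tested on simulated data. Scrublet, at an expected 3.07%, found 2 doublets by its own threshold. As an alternative, the 132 highest scores, 3 of them members, were left out, which is 3.44% of retained cells and above the expected share. TMM factors came from edgeR 4.0.16 in R 4.3.3. Other steps ran in Python 3.11.15 (scipy 1.17.1, numpy 2.4.6, and pandas 2.3.3). Gene positions are from GENCODE vM21 (GRCm38, as mm10), which held 99.6% of the 31053 identifiers.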

Additional observations from a re-analysis of the deposited data

How the results depend on the processing

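The counts of 31 higher and 85 lower genes, the medians of the 3 lists, and the shares of members and of Uncx with Tbx18 stayed within 1.5 times the count, or within the counting interval, without called doublets, without limits on cells, without the myogenic exclusion, with thinning after the rule, against deeper cells, without other classes, with TMM scaling, and with means over cells. With at least 3 of 4 markers, members were 2.66% of cells and 0% of them held both Uncx and Tbx18, and with thinning before the rule members were 4.98%. With a pseudocount of 1 CPM the median log2 ratio was 1.12 for the Hedgehog response list and 2.07 for the sclerotome transcription factor list. With 50 CPM these were 0.26 and 0.76, and 17 genes were higher and 51 lower. With at least 10 UMIs and no limit on CPM, 52 genes were higher and 271 lower, and the share of the genes then compared is not given. Without the other classes, Hbb-bs and Hbb-bh1 had log2 ratios of 0.083 and 0.017, and of 0.081 and 0.022 when myogenic cells were left out too, an alternative added after the data were seen; 29 genes were then higher and 68 lower. A resolution of 0.5, also added later, put 81.0% of members in 1 cluster. Of the log2 ratios of named genes under all alternatives, 2878 stayed within the counting interval, 502 left it, and 4 were labelled as reversed. More than these 4 changed sign. Without the other classes, the ratios of Emcn, Pecam1, Sox17, Pou5f1, Notch1, Hbb-bs, and Hbb-bh1 went from negative to positive (Emcn from -0.98 to 0.02). No paired analysis was possible because each group has 1 sample. Counting error, not replicate spread, is all that could be shown. A gene seen in 0 of 258 members can have a UMI in up to 1.16% of such cells, which does not limit the share that express it.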
